A study of Homo sapiens with 6 samples.

Results

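TRIM genes encode a large family of proteins, most of them ubiquitin ligases, and their transcripts were measured by RNA sequencing in PC9ER cells given the EGFR inhibitor gefitinib. The members were the rows of the coding gene table whose symbol starts with TRIM plus a digit, which gave 55 of 15376 rows. PC9ER is a cell line from a human lung adenocarcinoma that depends on the growth factor receptor EGFR and has become resistant to gefitinib, and no allele beyond that is given in the labels. There were 3 control libraries, labelled DMSO, and 3 libraries of cells treated with 1 µM gefitinib. A single protocol covers all of them: culture with 10% fetal calf serum, 72 h with DMSO in the place of the Notch inhibitor DBZ, a night without serum, and gefitinib in the last 6 h. The labels do not say whether the control cells also went without serum, so a difference in serum and the drug cannot be told apart. Nor do they say that replicates were separate cultures, so p-values measure the spread between these libraries, which may be technical.

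A TRIM protein is built from a RING domain, B-boxes and a coiled coil, followed by a C-terminal part that sets its class. The RING domain recruits a ubiquitin-loaded E2 enzyme, the coiled coil makes dimers, and the C-terminal part, often a PRY-SPRY domain, binds the substrate. The family is best known from antiviral defence, where several members are induced by interferon or switch on RNA and DNA sensors. Others act as transcription corepressors, on microtubules, in muscle or in autophagy.

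Promoter sequences are shown first, because they hold a feature that the symbol did not select for. In the RefSeq promoter table (GRCh38.p14, 250 bases before to 50 after the start of a gene), 41 of the 55 members matched by symbol. The core letters of the interferon-stimulated response element, GAAA followed by 2 bases of any kind and GAAA again, were searched on both strands. They stood in 9 of 41 TRIM promoters (22.0%), against 996 of all 27305 promoters of this length (3.65%). The set of all promoters was not limited to rows of the coding gene table, as the members were, so the sets are unlike. The 9 were those of TRIM2, TRIM5, TRIM14, TRIM16, TRIM21, TRIM26, TRIM34, TRIM44 and TRIM69. None of these matches overlapped a match to the other letters searched. The promoters of 3 members that rose or fell with the drug are given 5′ to 3′, with the matching letters in capitals.
TRIM26, chr6:30213357-30213656, minus strand: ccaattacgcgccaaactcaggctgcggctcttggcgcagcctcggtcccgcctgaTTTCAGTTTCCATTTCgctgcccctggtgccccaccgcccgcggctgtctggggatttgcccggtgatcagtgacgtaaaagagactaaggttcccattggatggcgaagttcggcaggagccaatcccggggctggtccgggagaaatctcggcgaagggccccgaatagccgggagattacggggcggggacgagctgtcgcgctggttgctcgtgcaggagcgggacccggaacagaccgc
TRIM21, chr11:4393653-4393952, minus strand: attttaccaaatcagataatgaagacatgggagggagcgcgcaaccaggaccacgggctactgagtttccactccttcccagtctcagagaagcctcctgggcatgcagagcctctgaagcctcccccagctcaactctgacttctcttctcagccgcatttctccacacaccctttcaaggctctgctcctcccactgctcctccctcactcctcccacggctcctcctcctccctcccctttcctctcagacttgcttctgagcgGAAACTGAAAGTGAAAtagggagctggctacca
TRIM14, chr9:98119173-98119472, minus strand: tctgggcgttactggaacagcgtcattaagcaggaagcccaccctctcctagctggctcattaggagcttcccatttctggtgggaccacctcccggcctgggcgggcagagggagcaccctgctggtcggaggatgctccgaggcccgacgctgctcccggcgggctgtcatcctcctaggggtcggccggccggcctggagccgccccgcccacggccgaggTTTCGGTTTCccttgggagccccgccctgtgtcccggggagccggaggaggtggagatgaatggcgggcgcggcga
TRIM26 and TRIM21 each hold 2 overlapping matches and were higher with gefitinib, whereas TRIM14 holds 1 match and was lower. The promoter of TRIM36, the member with the largest rise, holds none.
TRIM36, chr5:115180245-115180544, minus strand: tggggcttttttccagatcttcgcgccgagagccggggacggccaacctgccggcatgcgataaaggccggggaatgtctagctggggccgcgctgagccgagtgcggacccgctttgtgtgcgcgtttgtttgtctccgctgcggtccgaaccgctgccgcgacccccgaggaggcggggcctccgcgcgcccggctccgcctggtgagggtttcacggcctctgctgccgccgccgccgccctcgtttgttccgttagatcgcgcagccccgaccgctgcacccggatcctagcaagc
Among all genes tested, 28.3% were called higher and 22.8% lower with gefitinib (limma-trend, described with the family counts). Of the 9 members with the letters, 2 were higher, 6 lower and 1 not past the test, with a median log2 difference of -0.39. Of 31 tested members whose promoter lacks them, 8 were higher, 6 lower and 17 not past the test, with a median of 0.21. These counts are a description of letters in 1 window per gene and do not show that a factor binds there. Other letters were searched in the same way. TGACNNNGC (antioxidant element) stood in 9.76% of TRIM promoters and 13.6% of all, TGANTCA (AP-1) in 9.76% and 7.76%, and CCGGAAGT (ETS) in 7.32% and 4.44%. GTAAACA (FOXO) and TGACGTCA (CREB) stood in none of the TRIM promoters and in 3.41% and 1.98% of all.

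The libraries held between 13674237 and 38581498 reads in coding genes. Values are normalized read counts, which the authors scaled to 18085800 per library. Control replicate 1 stood apart from the other controls on principal component 2 (38.1 against -12.6 and -28.8; the component held 9.59% of the variance). The general epithelial genes EPCAM, KRT7, KRT8, KRT18 and CDH1 were abundant, and the 7 measured lung epithelial markers summed to 68980 to 91130 in control and 58880 to 61330 in gefitinib libraries. The lung-type genes NAPSA and SFTPB were low, with control means of 21.2 and 7.82. Fibroblast markers summed to 32.45 to 71.43 in control and 47.61 to 67.97 in gefitinib libraries, and blood markers to 17.85 to 32.45 and 30.94 to 40.67. Endothelial markers summed to 1180 to 1360 and 147.3 to 176.3, most of it PECAM1 (means of 1216 and 122), and their part in the results was not tested. In bulk RNA, fewer expressing cells and less RNA per cell cannot be told apart.

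TRIM genes moved in both directions after gefitinib, and their summed level was much the same in both groups. Together the 55 rows took 41016, 41448 and 41477 normalized reads in control replicates 1, 2 and 3 and 40701, 42056 and 41508 in gefitinib replicates 1, 2 and 3, so the groups overlapped. TRIM67 had no read in any library, so its level lies at or under the limit of 3 reads among the 132855939 coding reads of all 6 libraries, counting error only. Of the other 54 members, 12 were higher, 15 lower and 27 not past the threshold of 0.05 (limma-trend on log2(value + 1), Benjamini-Hochberg adjusted over 15229 genes). The called share, 27 of 54, is close to the 51.1% called among all genes tested, of which 28.3% were higher and 22.8% lower. The median log2 difference was 0.08 for the members and 0.10 for all genes, and the median size of the difference, without its sign, was 0.55 and 0.53. Among the 42 members with a mean of 20 or more normalized reads, 11 were higher and 12 lower, 54.8% in all against 60.2% of all genes at that level (32.5% higher and 27.6% lower). The groups did not overlap for 34 of 54 members (63.0%), against 58.0% of all genes. On whole reads recovered from the scaled values, edgeR called 11 members higher and 13 lower of 42 tested, against 61.3% of all genes it tested. Without control replicate 1, limma called 15 higher and 16 lower, against 56.6% of all genes.

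**Figure D1:**
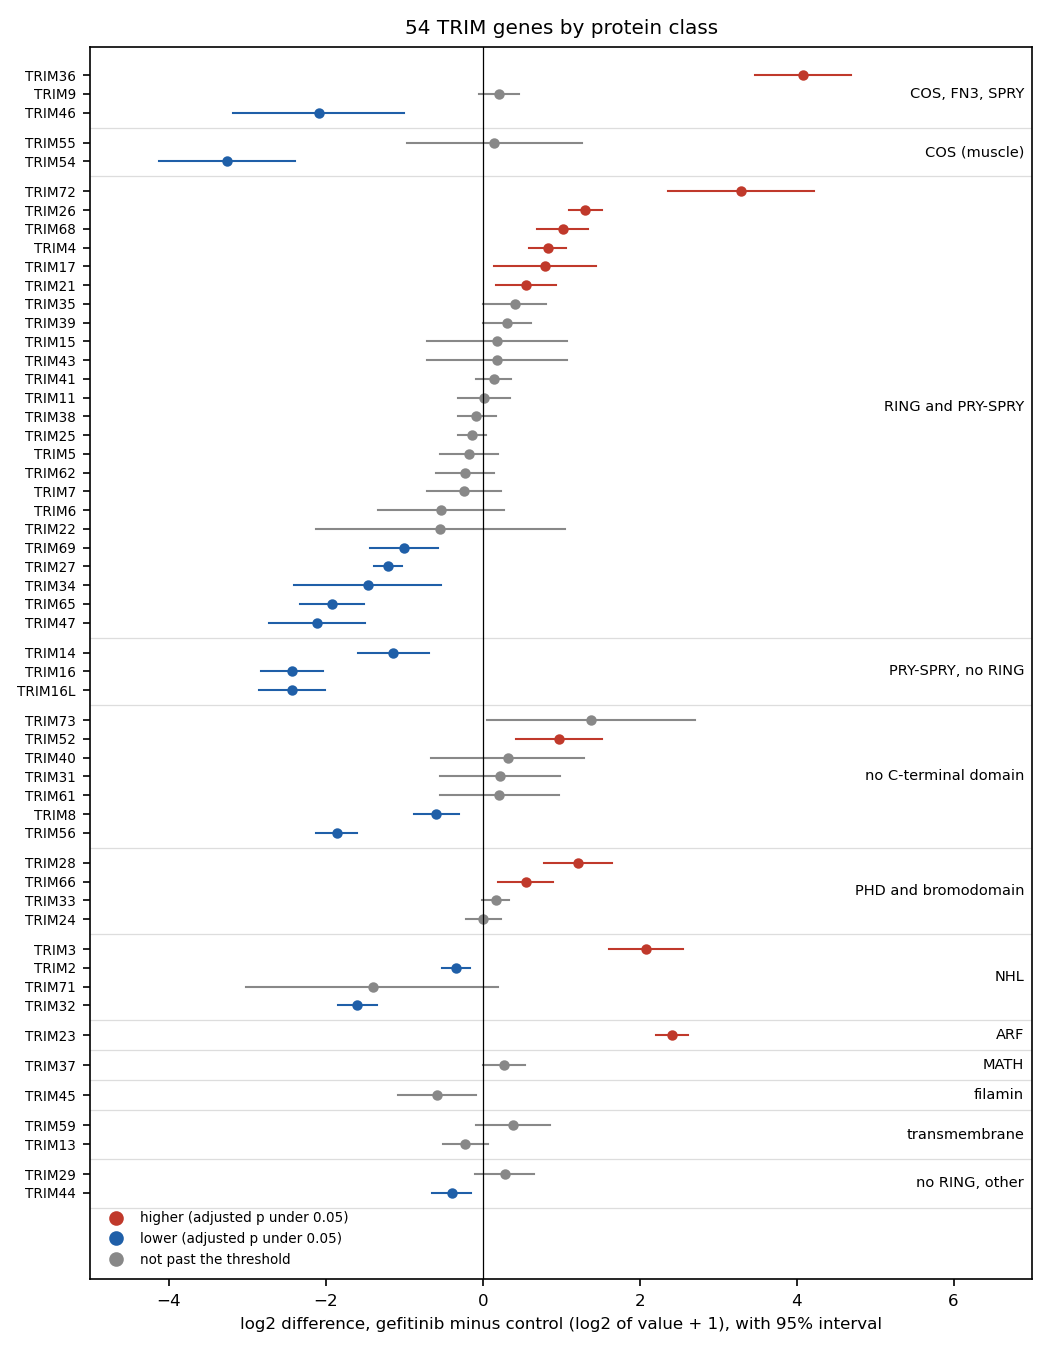
Log2 difference (gefitinib minus control, log2 of value + 1) of the 54 tested TRIM genes, with 95% intervals from limma, grouped by protein class. Red points are the 12 higher genes, blue points the 15 lower ones and grey points those not past the threshold, and TRIM36 at 4.08 and TRIM54 at -3.26 are the ends of the range.

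Per length of exon, TRIM25 and TRIM28 were the most abundant members in control cells. The mean level was 566 normalized reads per kb of exon for TRIM25 (557 to 581 over libraries), 553 for TRIM28 (385 to 683), 454 for TRIM16L (444 to 466), 441 for TRIM33 (418 to 477) and 326 for TRIM27 (307 to 347). The ranges of neighbours in this order overlapped, except that TRIM33 lay above TRIM27 in every library. With gefitinib the order became TRIM28 at 1255 (1086 to 1408), TRIM25 at 516 (477 to 550.2), TRIM26 at 504 (483 to 525), TRIM33 at 494 (485 to 502) and TRIM23 at 389 (375 to 406). TRIM16L went from rank 3 to rank 19 of the 54, and TRIM23 from rank 24 to rank 5. TRIM28 lay above and TRIM23 below its neighbours in every gefitinib library, while TRIM25, TRIM26 and TRIM33 overlapped.

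**Figure D2:**
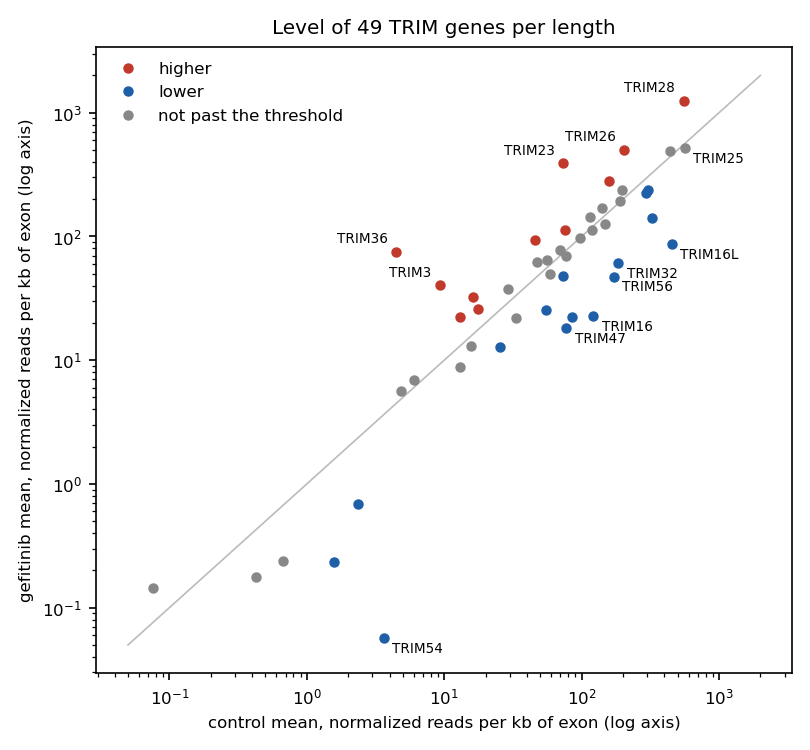
Mean normalized reads per kb of exon in control (horizontal, log axis) and gefitinib libraries (vertical, log axis) for the 49 TRIM genes with reads in both groups. The grey line marks equal levels; TRIM36 and TRIM23 stand far above it and TRIM54 and TRIM16L far below.

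A log2 difference of 1 or more past the test was found upwards in 7 of 54 members, against 12.4% of all genes. Downwards it was found in 11 of 54, against 9.92%. TRIM72 among the former and TRIM34, TRIM46 and TRIM54 among the latter had means under 20. In all, 14 members passed the test with a log2 difference of 1 or more in either direction, groups that did not overlap and a mean of 20 or more. This is 33.3% of the 42 members at that level, against 22.2% of all such genes. Of the 14 members, 6 were higher and 8 lower. They include TRIM16 and TRIM16L, near-identical copies that are uncertain as separate results. TRIM47, also among them, has an antisense gene over 51.5% of its exon bases.

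TRIM36 had the largest rise. It encodes a microtubule-associated ligase known from sperm (ENSG00000152503, chromosome 5, 115124762 to 115180546, GRCh38). Normalized counts were 33.9, 30.1 and 17.4 in control and 427, 411 and 544 in gefitinib replicates 1, 2 and 3. Every gefitinib library lay far above every control library, and the mean was 17 times higher. The log2 difference was 4.08 ± 0.27 (SE; limma adjusted p = 4.42e-06). The other TRIM genes measured in its class, marked by a COS box, a fibronectin repeat and SPRY, did not rise past the test. TRIM9, a gene of neurons, had 502 ± 15.6 (SD, n = 3) in control and 581 ± 63.5 in gefitinib libraries, a difference of 0.21 with a 95% interval from -0.05 to 0.46. TRIM46, which organizes axonal microtubules, fell from 23 reads summed over the controls to 5 summed over the treated libraries, 5.49 times lower per read sequenced (95% counting interval 2.04 to 18.5) (limma adjusted p = 0.00552).

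TRIM23 is the member that carries an ARF GTPase domain and acts in autophagy (ENSG00000113595, chromosome 5, 65589680 to 65625975). Its counts were 362, 348 and 344 in control and 1954, 1803 and 1850.2 in gefitinib libraries. The replicates were tight and the groups far apart, with a ratio of means of 5.32 and a log2 difference of 2.41 ± 0.09 (limma adjusted p = 4.99e-07).

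Genes of the NHL class, whose C-terminal propeller binds RNA or protein partners, split. TRIM3 (ENSG00000110171, chromosome 11, 6448613 to 6474459) had 62.8, 69.2 and 56.0 in control and 210.3, 295 and 309.9 in gefitinib libraries, a rise of 2.08 ± 0.21 (limma adjusted p = 4.11e-05). TRIM32, a muscle-linked ligase mutated in a limb-girdle dystrophy (ENSG00000119401, chromosome 9, 116687302 to 116701300), had 684, 712 and 699.8 and then 237, 236 and 216. It was 3.04 times lower, with a log2 difference of -1.60 ± 0.11 (limma adjusted p = 5.66e-06). TRIM2, a close relative of TRIM3, fell only slightly, from 2847 ± 70.0 to 2256 ± 162 (-0.34 ± 0.08). TRIM71, the stem cell regulator also called LIN41, had 20 and 6 reads in the groups and did not pass (limma adjusted p = 0.130), although it did without control replicate 3 (0.0492) or gefitinib replicate 1 (0.0268). Its adjusted p lay between 0.0268 and 0.395 under all alternatives.

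TRIM28 was the member of the corepressor class that rose most. This class joins a PHD finger to a bromodomain, and TRIM28, also called KAP1, silences chromatin where KRAB zinc finger proteins bind (ENSG00000130726, chromosome 19, 58544091 to 58550722). Counts were 1554, 2385 and 2754 in control and 4379, 5135 and 5679 in gefitinib libraries. Control replicate 1 was the lowest, and the groups did not overlap. The log2 difference was 1.21 ± 0.19 (limma adjusted p = 0.000626). Without control replicate 1 it was 0.97, under the size limit of 1 but still called (limma adjusted p = 4.01e-05). TRIM66 rose as well, from 207 ± 11.6 to 306 ± 44.9 (0.55 ± 0.15, limma adjusted p = 0.0146), a call lost when control replicate 2, or either of gefitinib replicates 2 and 3, was left out (0.0502, 0.0604 and 0.0681; from 0.00859 to 0.0681 over all alternatives). TRIM24 had 1763 ± 197 and 1770.3 ± 103, with an interval of the log2 difference from -0.21 to 0.23. TRIM33, a regulator of SMAD signalling, had 4220.2 ± 303 and 4727 ± 82.6 (limma adjusted p = 0.103). It was called higher without control replicate 1 (0.00657, over a range from 0.00657 to 0.543).

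More partners of TRIM28 were lower than higher. Of 13 genes of its silencing machinery, 3 were higher (23.1%), 7 lower (53.8%) and 3 not past the test. Among all genes with a mean of 20 or more, 32.5% were higher and 27.6% lower. The called share was 76.9%, against 60.2% of all genes at that level, and the median log2 difference -0.24 beside 0.07. The list was chosen with earlier results of these data known. CBX5, the heterochromatin protein HP1 alpha, fell from 8136 to 4815 normalized reads (-0.76 ± 0.07) and MPHOSPH8, a subunit of the HUSH complex, from 1087 to 501 (-1.12 ± 0.12). CBX1, the beta form of HP1, rose from 1081 to 1754 (0.70 ± 0.09).

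All 3 members that keep the PRY-SPRY domain but lack a RING were called lower. Among all genes with a mean of 20 or more, 27.6% were lower. With 3 genes, of which TRIM16 and TRIM16L are near-identical copies, this says little of the class. TRIM16 acts in autophagy of damaged lysosomes (ENSG00000221926, chromosome 17, 15627960 to 15684311). Its counts were 597, 716 and 750.0 in control and 155, 126 and 103 in gefitinib libraries (-2.43 ± 0.18, limma adjusted p = 7.19e-06). TRIM16L, a shortened copy of TRIM16 (ENSG00000108448, chromosome 17, 18697998 to 18736118), had 1949.7, 2017 and 1924 and then 499.9, 349 and 276. Its difference was also -2.43 ± 0.19 (limma adjusted p = 9.24e-06). Reads from such near-identical copies can be assigned to either gene, so these are uncertain as separate results, and 23.5% of the exon bases of TRIM16 also belong to an overlapping gene model. TRIM14, an adaptor of the RNA sensing protein MAVS (ENSG00000106785, chromosome 9, 98069275 to 98119212), had 286, 292 and 322 and then 102, 145 and 170.2. The groups did not overlap (-1.14 ± 0.20, limma adjusted p = 0.00126). Without gefitinib replicate 1 the difference was -0.93, under the size limit but still called (limma adjusted p = 0.0027).

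**Figure D3:**
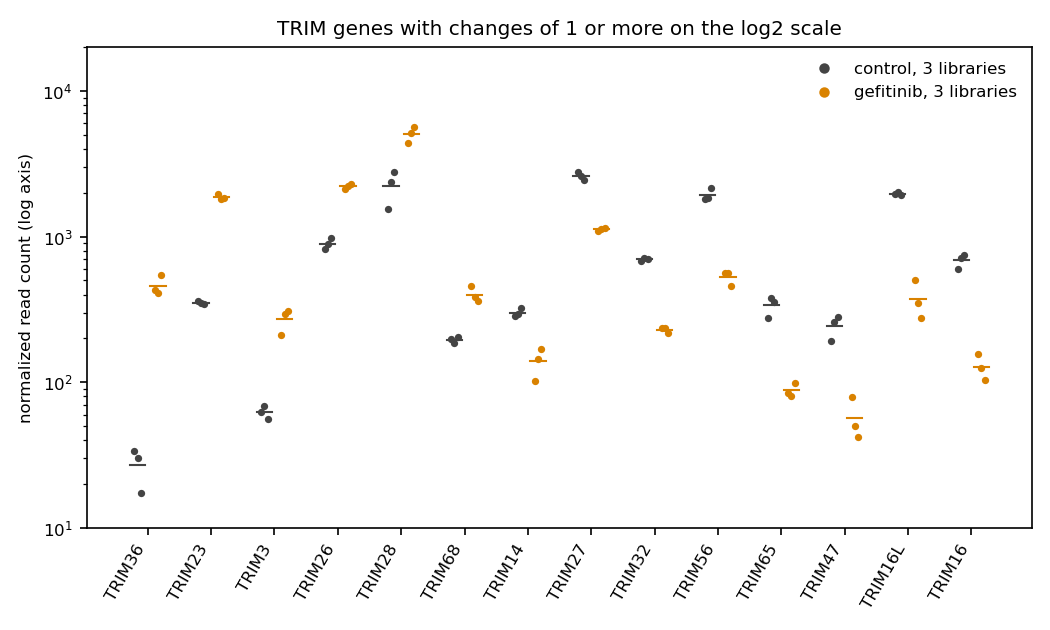
Normalized read count (log axis) in each of the 3 control (dark) and 3 gefitinib libraries (orange) for 14 TRIM genes. These are the called members that met the limits on mean, size and overlap for being named in full. Short lines are group means. The 6 genes on the left were higher and the 8 on the right lower with gefitinib. Absence of overlap between groups was a condition of the choice. TRIM34, TRIM46, TRIM54 and TRIM72 were called with larger differences than some genes shown, but their means were under 20 and they are left out.

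The class with a RING and a PRY-SPRY domain is the largest of the family here. Of 24 members tested, 6 were higher, 5 lower and 13 not past the test, with a median log2 difference of -0.03. The called share of 45.8% is near the 51.1% of all genes. TRIM26, a ligase that acts on interferon signalling (ENSG00000234127, chromosome 6, 30184455 to 30213427), had 819.7, 885 and 977 in control and 2114, 2214 and 2296 in gefitinib libraries. Its rise was 1.31 ± 0.09 (limma adjusted p = 6.22e-06). TRIM68, a coregulator of the androgen receptor (ENSG00000167333, chromosome 11, 4598672 to 4608259), had 199, 187 and 203 and then 458, 383 and 359. This was a rise of 1.02 ± 0.14 (limma adjusted p = 0.000302), at the edge of the size limit.

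TRIM27, a ligase that acts on endosomal sorting (ENSG00000204713, chromosome 6, 28903002 to 28923989), went the other way. Counts were 2774, 2587 and 2452 in control and 1099, 1134 and 1137 in gefitinib libraries. The difference was -1.21 ± 0.08 (limma adjusted p = 4.67e-06). TRIM47 (ENSG00000132481, chromosome 17, 75874161 to 75878575) had 192, 259 and 279.9 and then 79.4, 49.7 and 42.2 (-2.11 ± 0.27, limma adjusted p = 0.000174). An antisense gene covers 51.5% of its exon bases, and no source used here says whether counting was by strand, so the origin of those reads is uncertain. TRIM65, a ligase of the RNA sensor MDA5 (ENSG00000141569, chromosome 17, 75880335 to 75897003), had 277, 379 and 357 and then 84.6, 80.4 and 98.9. It was 3.84 times lower, with groups far apart (-1.92 ± 0.18, limma adjusted p = 3.13e-05).

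Smaller differences in this class went both ways. TRIM4 rose from 776 ± 58.1 to 1378 ± 133 (0.83 ± 0.11). TRIM69, a centrosomal protein, fell from 237 ± 5.78 to 119.8 ± 26.9, just short of the size limit. TRIM21, the cytosolic antibody receptor, rose from 146 ± 5.59 to 216 ± 31.6 (limma adjusted p = 0.0208). The TRIM21 call was lost without control replicate 2 or 3 or gefitinib replicate 1 or 2 (0.0589, 0.0512, 0.0598 and 0.0703; from 0.0147 to 0.0703 over all alternatives). TRIM17 had the weakest call, from 46.4 ± 15.0 to 79.2 ± 13.0 (limma adjusted p = 0.0460). It was lost with TMM factors (0.0514), with DESeq2 size factors (0.0525) and without control replicate 1 (0.0965), control replicate 2 (0.0952) or gefitinib replicate 1, 2 or 3 (0.0529, 0.159 and 0.107), over a range from 0.0180 to 0.159.

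TRIM25, the ligase of the RNA sensor RIG-I, had 5382 ± 119 and 4899 ± 351 (limma adjusted p = 0.171), with an interval of the log2 difference from -0.31 to 0.04. TRIM5, which restricts retroviral capsids, had 371 ± 28.1 and 334 ± 69.5, and TRIM38 had 1117 ± 131 and 1056 ± 68.5. TRIM39 had 492 ± 72.1 and 607 ± 52.2 and TRIM35 had 202 ± 46.2 and 264 ± 5.42. Neither of the last pair was called, but TRIM39 was without control replicate 1 (0.0160, from 0.016 to 0.275 over all alternatives) and TRIM35 without control replicate 3 (0.0175, from 0.0175 to 0.205). The remaining members at a mean of 20 or more, TRIM6, TRIM7, TRIM11, TRIM41 and TRIM62, had differences from -0.53 to 0.14 and did not pass.

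Members known from antiviral defence did not move as one. Of 9 members listed as such, 2 were higher (TRIM21 and TRIM26) and 3 lower (TRIM14, TRIM34 and TRIM56). The other 4 (TRIM5, TRIM22, TRIM25 and TRIM38) were not past the test. The called share of 55.6% is near the 51.1% of all genes. TRIM65, the MDA5 ligase that was lower, was not on the list, which was chosen with earlier results of these data known. TRIM56, a ligase that promotes sensing of cytosolic DNA (ENSG00000169871, chromosome 7, 101085439 to 101097967), had 1800.2, 1827 and 2140.0 in control and 558, 566 and 461 in gefitinib libraries. It was 3.64 times lower, with a log2 difference of -1.86 ± 0.12 (limma adjusted p = 3.38e-06). TRIM22 was close to absent, with 8 and 5 reads in the groups. TRIM34 had 21 and 9 reads, a call lost in DESeq2 (adjusted p = 0.180) and without gefitinib replicate 2 (0.0603; from 0.00716 to 0.180 over all alternatives), and 83.0% of its exon bases belong also to the TRIM6-TRIM34 readthrough gene.

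Partner genes in the sensing pathways were called about as often as other genes. Of 16 partner genes, 4 were higher, 6 lower and 6 not past the test, with a median of -0.02; the called share was 62.5%, against 51.1% of all genes and 60.2% of those with a mean of 20 or more. MAVS, the adaptor of RNA sensing, fell from 3248 to 903 normalized reads (-1.84 ± 0.09) and TRAF3, which acts after it, from 1156 to 360.5 (-1.68 ± 0.12). TRAF6, a ligase of NF-kappa-B signalling, rose from 172 to 656 (1.92 ± 0.15).

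Among members with no C-terminal domain, TRIM56 and TRIM8 were lower and TRIM52 higher. The other 4 of 7, TRIM31, TRIM40, TRIM61 and TRIM73, were not past the test. The called share was 42.9%, against 51.1% of all genes, and TRIM40, TRIM61 and TRIM73 had means under 20. TRIM8, a ligase of inflammatory signalling, fell from 693 ± 102 to 458 ± 24.3 (-0.59 ± 0.13) and TRIM52 rose from 106 ± 12.1 to 214 ± 62.3 (0.97 ± 0.24). For TRIM52, 28.5% of the exon bases lie under a transcript of the opposite strand. The members with a MATH domain, a filamin domain or a transmembrane end did not pass the test. TRIM37, the only member with a MATH domain, had 1087 ± 141 and 1312 ± 127 (limma adjusted p = 0.0789), and TRIM13 of the endoplasmic reticulum had 474 ± 62.1 and 404 ± 17.3. TRIM37 was called without control replicate 1 (0.00610) and TRIM59 likewise, at 230.5 ± 68.1 and 294 ± 37.1 (0.161 with all libraries and 0.00598 without that one). Over all alternatives the adjusted p ranged from 0.0061 to 0.279 for TRIM37 and from 0.00598 to 0.386 for TRIM59. TRIM45, which has a filamin domain, had 146 ± 31.4 and 96.5 ± 14.3 and narrowly missed the threshold (0.0516). It was lower by edgeR (0.0210) and in 9 other alternatives (from 0.0155 to 0.205 over all).

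TRIM29 and TRIM44 lack both a RING and a PRY-SPRY domain. TRIM29, a gene of squamous epithelia, had 1433 ± 291 and 1727 ± 284 (limma adjusted p = 0.202, interval from -0.10 to 0.66). TRIM44 fell from 3827 ± 343 to 2918 ± 342 (-0.39 ± 0.11, limma adjusted p = 0.0125).

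Several members had few or no reads. TRIM54, a sarcomeric ligase of the MURF group, fell from 34 reads summed over the controls to 1 over the treated libraries, 40.6 times lower per read sequenced (95% counting interval 6.80 to 1648) (limma adjusted p = 0.000109). TRIM72, which seals torn muscle membranes, had 0 reads in control and 42 in gefitinib libraries (limma adjusted p = 0.000156). The exact 95% counting interval of the ratio had a lower limit of 9.13. Setting the control group at a floor of 3 reads gave a ratio of 11.7, which leaves out counting error in the treated reads. TRIM55 had 1 read in each group. TRIM73 had 0 and 11 reads and did not pass (limma adjusted p = 0.0792), although it did without gefitinib replicate 1 (0.00349, from 0.00349 to 0.279 over all alternatives). TRIM15, TRIM40 and TRIM43 had no read in control and at most 2 in gefitinib libraries.

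Neighbouring members were compared, and 1 close pair fell together. TRIM47 and TRIM65 lie 1.76 kb apart on the same strand of chromosome 17, and fell by 2.11 and 1.92 on the log2 scale. TRIM11 and TRIM17 lie 1.10 kb apart on chromosome 1, where TRIM11 differed by 0.02 (interval from -0.31 to 0.35) and TRIM17 by 0.79. In the major histocompatibility region of chromosome 6, TRIM26 rose while TRIM39, 113 kb away, and TRIM31 were not called. TRIM31 had 73 reads in control and 96 in gefitinib libraries, a difference of 0.22 (interval from -0.54 to 0.99). TRIM40 and TRIM15 had no read in control and at most 2 in gefitinib libraries. On chromosome 5, TRIM52 rose and its neighbours TRIM41 and TRIM7 did not pass. On chromosome 11, TRIM21 and TRIM68 rose, TRIM6, TRIM5 and TRIM22 did not pass and TRIM34 fell, while TRIM3 rose further along.

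**Figure D4:**
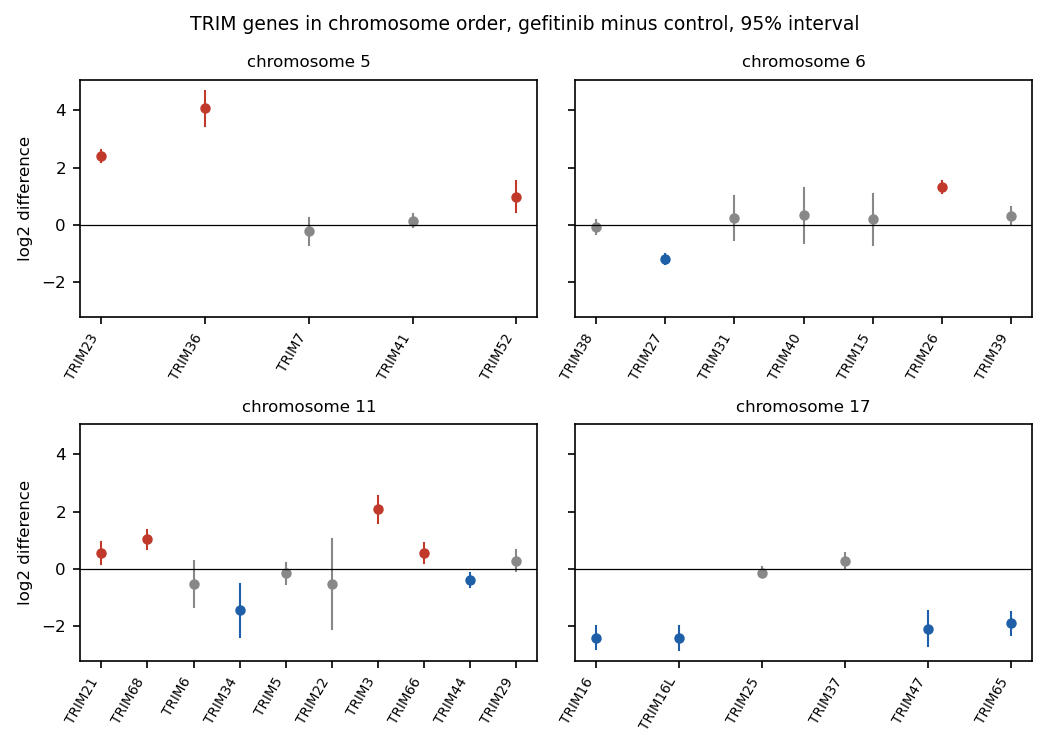
Log2 difference with 95% interval for the TRIM genes of chromosomes 5, 6, 11 and 17, in chromosome order with equal spacing; red is higher, blue lower and grey not past the threshold. TRIM47 and TRIM65 sit side by side at -2.11 and -1.92, whereas TRIM26 at 1.31 stands among neighbours that were not called.

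Some family members have a symbol that follows another rule. Of 7 measured genes of this kind, 3 were higher, 2 lower and 2 not past the test, or 71.4% called. The share was 51.1% of all genes and 60.2% of those with a mean of 20 or more, and only 1 of the 7 had a lower mean. By edgeR, 2 were higher and 2 lower of 6 tested, against 61.3% of all genes it tested. Among the higher genes, MEFV, had no control reads and a mean of 1.36 normalized reads with gefitinib, and edgeR did not test it. CMYA5, a large muscle protein, rose from 35.0 to 212 normalized reads (2.55 ± 0.22), MID2, a microtubule ligase of the class of TRIM36, from 119 to 256 (1.10 ± 0.16), and BSPRY fell from 774 to 369 (-1.07 ± 0.11). MID1, the paralog of MID2, had 855 and 861 (interval from -0.20 to 0.22). PML, the organizer of nuclear bodies, had 478 and 460.3 (interval from -0.43 to 0.39). Of 15 genes listed as E2 enzymes, 10 were called, with 4 higher and 6 lower. The share of 66.7% is near the 60.2% of all genes with a mean of 20 or more. UBE2D1 rose from 1969 to 4204 (1.10 ± 0.12), while UBE2E1 fell from 5279 to 2874 (-0.87 ± 0.09) and UBE2E2 from 619 to 269 (-1.19 ± 0.13).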

How the data were processed

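RNA from 3 control and 3 gefitinib libraries was compared, grouped by sample title. STAR, HTSeq and GRCh38 are named in the submitters' processing notes, without versions. The deposited values are a signal that is never negative: read counts of genes, scaled by the authors so that every library has the same total, by a step that no source used here states. With a tolerance of 0.01 read, 100% of values above 0 came out as whole reads. Another table's 6 per-sample columns match no label and were not used. Of 15376 rows, 147 were 0 throughout and 15229 were tested, 2-sided, in R 4.3.3 by limma-trend (limma 3.58.1) after log2(value + 1), and p-values were adjusted over all genes at a threshold of 0.05. The scale understates changes of low genes. On the recovered reads edgeR 4.0.16 called 3707 genes higher and 3752 lower of 12167. DESeq2 1.42.0 was another alternative. Further alternatives were pseudocounts, filters, scalings, limma-voom, a replicate block and leaving out each library. Replicate libraries differed by more than sampling noise in every pair.

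Positions and exon lengths (union of exons) are from GENCODE 29 (GRCh38), where each member symbol matched 1 coding gene; promoters are from RefSeq. Members, classes and lists were chosen with earlier results of these data known. Named in full were members past the threshold with a mean of 20 or more, groups apart and a log2 difference of 1 or more in size. The text also names the 5 most abundant per kb, well known members of each class, all members of small classes, and up to 3 genes with the smallest p in each list of other genes. MID1, PML, TRIM69 and other members beyond this rule were named after their values were seen.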

Additional observations from a re-analysis of the deposited data

How the results depend on the processing

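Across 16 alternatives, between 9 and 15 members were higher and between 13 and 17 lower, and each count stayed within 1.5 times the reported 12 and 15. Leaving out 1 library gave 9 to 15 higher and 14 to 17 lower. TMM factors gave 11 and 16, and the share of all genes called ranged from 41.8% to 62.2%. The median log2 difference of all genes was 0.10 as scaled by the authors and 0.05 after TMM, so small differences shift with the scaling. Of the 27 called members, 23 kept their call in every alternative that tested them; TRIM17, TRIM21, TRIM34 and TRIM66 lost it in at least 1. Of the 27 others, 9 were called in at least 1 alternative, and no call changed direction. Filters on low values removed 12 members, among them TRIM34, TRIM46, TRIM54 and TRIM72, whose few reads limit what can be said of them.

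The replicate numbers come from the sample titles, and the main test did not pair them. Same-numbered libraries deviated together with correlations of 0.127, 0.0444 and 0.0947. Every library correlated best with its own number except control replicate 2 (0.0862 with gefitinib replicate 3). These values do not settle whether the libraries were paired. With the replicate block 14 members were higher and 16 lower, and all genes gave 4438 and 3552 in place of 4312 and 3473. Under the block TRIM29 and TRIM37 were also called higher (limma adjusted p = 0.0314 and 0.0225) and TRIM45 lower (0.0388), over ranges from 0.0314 to 0.528, 0.0061 to 0.279 and 0.0155 to 0.205 for all alternatives.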
